A study of Mus musculus with 14 samples.

Results

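The cells described here were c-kit+ cells sorted from the yolk sac (YS) of E10 mouse embryos, called YS haematopoietic stem and progenitor cells (YS HSPCs) in the study. All cells of the deposited E10 table whose column names carried the YS label of that stage were taken, which gave 141 of 546 E10 single cells and of 1121 single cells in the series. They came from 2 sorted sets of 65 and 76 cells. The comparison population was 73 c-kit+CD31+ cells of the intra-aortic haematopoietic clusters (IAHCs) in the aorta-gonad-mesonephros (AGM) region at E10. Both populations were from wild-type (WT) C57BL/6 embryos, whereas 43 non-haemogenic endothelial (non-HE), 98 haemogenic endothelial (HE) and 191 cells in endothelial-to-haematopoietic transition (EHT) were from AGMs of ICR embryos with the reporter genotype Gfi+/tomato/ Gfi1b+/GFP. All embryos of these populations were at E10, with 28 to 32 somite pairs by the labels. The 3 ICR populations were sorted as Cdh5+ cells, with non-HE cells Gfi1-, HE and EHT cells Gfi1+, and c-kit on EHT cells but not on the other two. At E11, 46 c-kit+ YS cells and IAHC cells of 2 samples, 201 c-kit+CD31+ and 89 c-kit+ cells, all WT C57BL/6, were used as samples that shared no cell with E10. Embryos were pooled before sorting, so no cell could be assigned to an embryo.

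The YS is the first site of blood formation in the mouse embryo. After a first wave of primitive erythroid cells, its haemogenic endothelium gives rise to erythro-myeloid progenitors, which carry c-kit and form red cells, megakaryocytes, mast cells and myeloid cells. Erythroid commitment is driven by the transcription factors Gata1 and Klf1 with the Gata1 cofactor Zfpm1 (Fog1), while myeloid commitment is marked by granule proteins such as Mpo. IAHC cells arise from the aortic endothelium and include precursors of HSCs (pre-HSCs).

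Each cell held 3000 transcripts, and a level is given as the mean number of transcripts per cell at that depth. YS HSPCs had 1588 to 1924 genes with a transcript (median 1752), and IAHC cells had a median of 1812. Each population was 1 sample and the sorted sets were parts of a sample, so no test was run. The 95% intervals (exact Poisson for levels, exact Clopper-Pearson for shares, exact conditional binomial for ratios) cover counting error only, not the spread between embryos or cells. The spread between cells was wider than counting error for many genes, with a ratio of variance to mean of 4.84 for Mpo and 6.03 for Hbb-bh1. Column numbers of the first set recurred in the second for 51 cells, but 0 of the YS and IAHC cells were identical. Strain and reporter genotype cannot be told apart from population where YS HSPCs stand beside non-HE, HE and EHT cells. The column names of non-HE cells read early E11 while their labels read E10, so these cells are used only for background levels. By the study's account the deposited IAHC cells had been selected on Gpr56, and c-kit and CD31 were sort markers. Gpr56, Kit and Pecam1 are therefore not read as results. The stated selection also dropped cells rich in a marker of other cell types. In the deposited values 54 of the 73 passed both steps, counted with 11 such markers that the study names. Among these markers are Cdkn1c, Csf1r, Fcgr3 and mesenchymal genes. YS cells had no such filter, and ratios of these genes with YS cells filtered alike were not tested.

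The label of the cells was checked against the 6 markers Mpo, Mt1, Zfpm1, Rac2, Gata1 and Klf1. All 6 were detected in both sorted sets. Rac2, a small GTPase of blood cells, was at 2.11 transcripts per cell (1.87 to 2.36) and was detected in 115 of 141 cells. Mpo, the myeloperoxidase of neutrophil granules, was at 1.82 (1.60 to 2.05) in 77 cells, and Mt1, a metal-binding metallothionein, at 1.71 (1.5 to 1.94) in 92 cells. Zfpm1 was at 1.26 (1.08 to 1.45) in 92 cells, Gata1 at 0.518 (0.406 to 0.651) in 47 cells and Klf1 at 0.383 (0.288 to 0.4997) in 37 cells. In HE cells, which serve as background at the same depth, Rac2 and Mpo were each detected in 2 of 98 cells and Mt1 in 1. Gata1 and Klf1 were detected in 0 of 98 HE cells. A count of 0 here leaves room for up to 3.06% of cells with a transcript at this depth, and does not limit the share of cells that express the gene. Zfpm1 was less restricted, with a transcript in 20 HE cells.

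**Figure D1:**
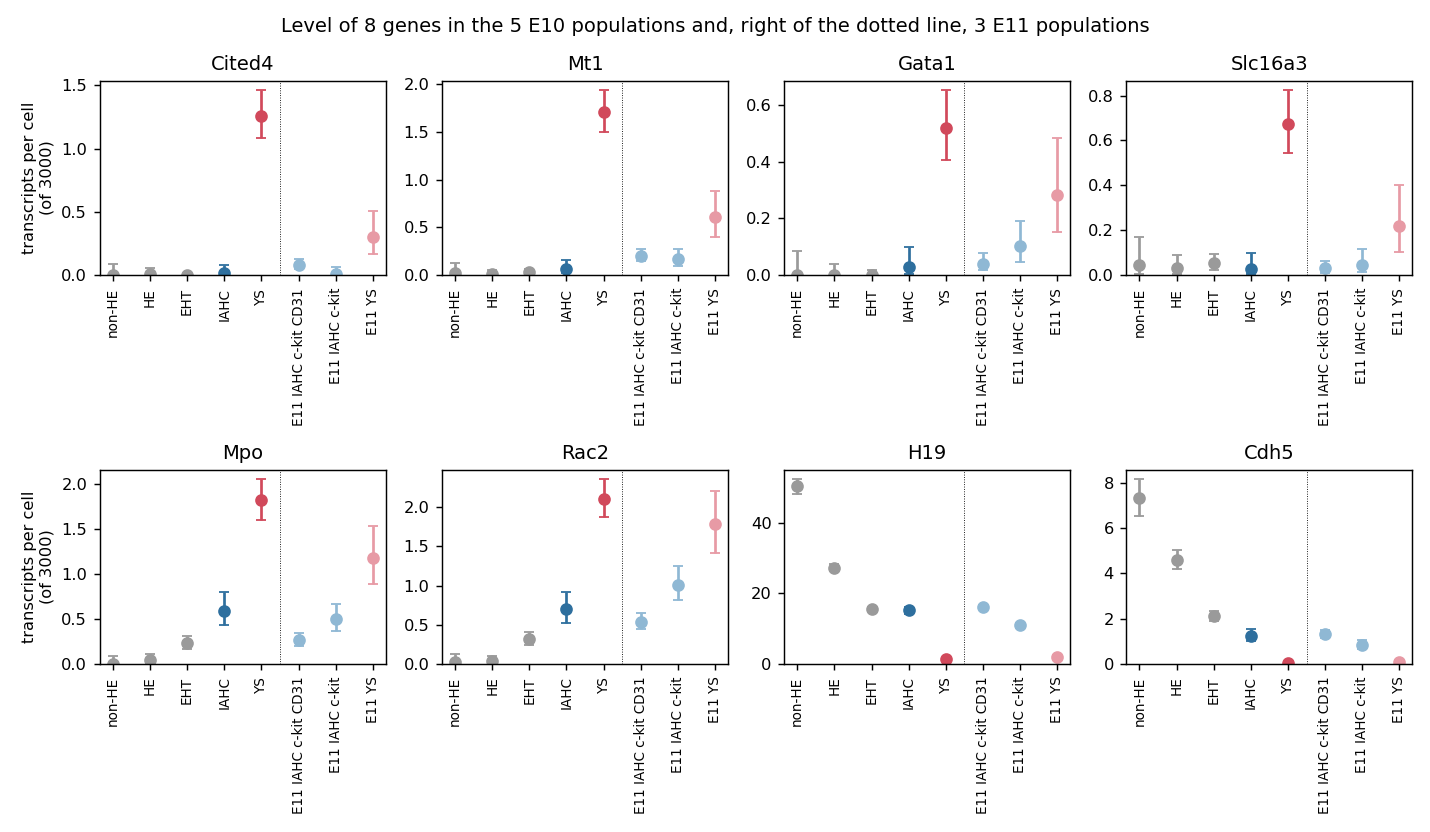
Mean transcripts per cell with exact 95% Poisson intervals for 8 genes in the 5 E10 populations and, thinned to the E10 depth, in 3 E11 populations. Cited4, Mt1, Gata1 and Slc16a3 were near 0 in every E10 population other than YS HSPCs, whereas H19 and Cdh5 were lowest in YS HSPCs (1.33 and 0.0284).

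Of 1579 genes at 0.5 transcripts per cell or more in YS HSPCs or IAHC cells, 76 (4.81%) were at least 2-fold higher and 107 (6.78%) at least 2-fold lower in YS HSPCs, with 0.1 added to each level. Together these were 11.6% of the genes, and the median log2 ratio of all 1579 was 0.09. With 0.5 added in place of 0.1, the counts were 17 and 36. Every one of the 76 and 107 genes kept its direction in both sorted sets taken alone. This was largely fixed in advance, since the genes were called on the pooled sets and both sets were compared with the same IAHC cells. Between the sets only 4 of 1497 genes were 2-fold apart.

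**Figure D2:**
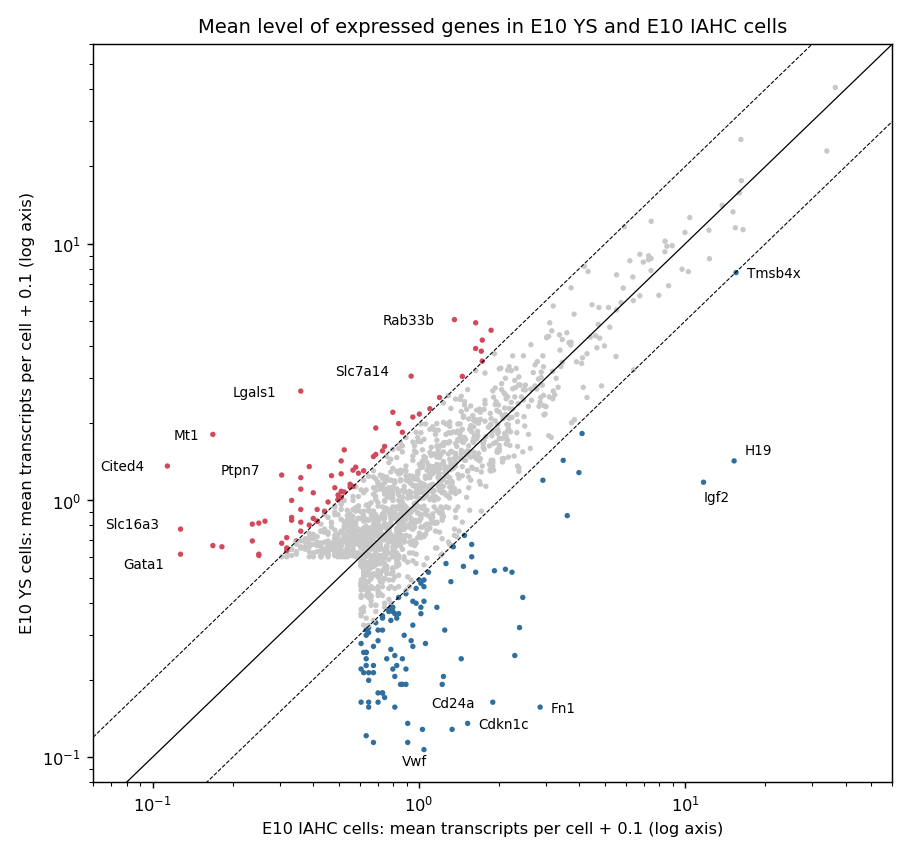
Mean transcripts per cell plus 0.1 in E10 IAHC cells (x axis, log scale) and in YS HSPCs (y axis, log scale) for 1579 genes, with dashed lines at 2-fold. The 76 red points are at least 2-fold higher and the 107 blue points at least 2-fold lower in YS HSPCs, with Cited4 and Mt1 highest above the lines and Fn1 farthest below them.

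Cited4, a transcriptional coactivator that binds CBP/p300, had the highest ratio. It was at 1.26 transcripts per cell (1.08 to 1.46) in YS HSPCs, with 1.09 in the first set and 1.41 in the second, and up to 12 transcripts in a cell. In IAHC cells it was at 0.0137, a single transcript in 73 cells, so the 92.2-fold difference (log2 6.53) has a wide counting interval of 4.03 to 11.84. Mt1 was 24.95-fold higher than in IAHC cells (log2 4.641, 3.40 to 6.28), where it was at 0.0685. Its levels of 1.72 and 1.70 in the sorted sets were nearly equal.

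Lgals1, the secreted lectin galectin-1, was at 2.57 (2.31 to 2.846) against 0.260, a 9.86-fold difference (log2 3.30, 2.64 to 4.05). It was also detected in 45 of 98 HE cells, at 0.816, so it is not a gene of YS HSPCs alone. Slc16a3, a lactate transporter of glycolytic cells, was at 0.674 in 58 YS cells and at 0.0274 in IAHC cells, where it had 2 transcripts (log2 4.62, 2.73 to 7.69). Gata1 was 18.9-fold higher on 2 IAHC transcripts (log2 4.24, 2.34 to 7.31). Ptpn7, a haematopoietic tyrosine phosphatase, was detected in 99 YS cells at 1.16 against 0.205 in IAHC cells. Asns, asparagine synthetase, was at 0.560 against 0.0822, and Fermt3, the integrin activator kindlin-3 of blood cells, at 0.730 against 0.164.

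Rab33b, Slc7a14 and Zfpm1 were also detected in many IAHC cells. Rab33b, a Golgi GTPase, was at 4.96 transcripts per cell in 133 of 141 YS cells and at 1.26 in IAHC cells (3.94-fold), but also at 2.00 in EHT cells. Slc7a14, of the amino acid transporter family, was at 2.95 against 0.836 (3.53-fold). Zfpm1 was 4.36-fold higher (log2 2.13, 1.47 to 2.853). Rmi2, of the complex that resolves DNA crossovers, was at 0.716 overall but at 1.03 in the first set and 0.447 in the second, the most uneven of these genes between the sets. The 10 genes with the highest ratio of YS HSPCs to whichever other E10 population came next were Cited4, Mt1, Slc16a3, Gata1, Ptpn7, Ydjc, Asns, Tuba4a, Fermt3 and Snhg9. Tuba4a may share reads with other alpha-tubulin genes.

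On the low side stood genes of endothelium and matrix. IAHC cells were sorted on CD31, which endothelial cells also carry, whereas YS cells were sorted on c-kit alone. The part of this sort in the lower endothelial levels of YS HSPCs was not tested. Fn1, the matrix protein fibronectin, was at 0.0567 transcripts per cell in YS HSPCs, in 8 cells, and at 2.75 in IAHC cells, a 48.5-fold difference (log2 -5.60, -6.83 to -4.59). Cdh5, the VE-cadherin of endothelial junctions, was detected in 3 of 141 YS cells at 0.0284 and in 45 of 73 IAHC cells at 1.23 (log2 -5.44, -7.35 to -4.03). Vwf, the clotting factor stored by endothelial cells, had a single transcript in YS HSPCs against 0.945 per IAHC cell (log2 -7.06, -12.38 to -4.53). Ramp2, Ecscr and Col18a1, of endothelial receptors and basement membrane, were lower by 32.8, 22.8 and 10.4 times.

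Genes of fetal growth and of cell surface followed. H19, the maternally expressed imprinted RNA, was at 1.33 against 15.2 (11.4-fold lower, log2 -3.52, -3.75 to -3.29), and its paternally expressed neighbour Igf2, a growth factor, at 1.08 against 11.6 (10.8-fold lower). In non-HE cells these RNAs reached 50.4 and 50.3 transcripts per cell. Cdkn1c, the imprinted cell-cycle inhibitor p57, was at 0.0355 against 1.42, and Cd24a, a small surface glycoprotein, at 0.0638 against 1.79. Cdkn1c was also a marker in the study's selection of IAHC cells. The interferon-induced Ifitm3 was lower by 12.2 times.

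Among the lowest 15, Hspa1b, Jun and Rgs2 respond quickly to stress in many cells. Hspa1b, an inducible heat shock protein whose reads may be shared with Hspa1a, was at 0.0142 against 0.808, Jun, an AP-1 subunit, at 0.142 against 1.34, and Rgs2, a G-protein regulator, at 0.106 against 1.14. In the list of 15 stress and immediate-early genes, 5 passed the floor of 0.5, of which 3 were at least 2-fold lower in YS HSPCs, and their median log2 ratio was -2.56. The summed transcripts of this list went the other way, with a log2 ratio of 0.32, since Hspa8, a constitutive chaperone, was at 25.4 against 16.1. The part of tissue handling in these values was not tested.

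At E11, in cells thinned to the same depth, all 15 highest and all 15 lowest genes had the same direction against both IAHC samples, beside 70.0% and 66.1% of all 1579 genes. Both of these ratios use the same 46 E11 YS cells. Of the 76 higher genes, 67 and 59 kept their direction, and of the 107 lower genes 98 and 95 did. The sizes were smaller on the high side, with Cited4 at 0.304, Mt1 at 0.609 and Gata1 at 0.283 transcripts per E11 YS cell, against 0.0796, 0.204 and 0.0398 in c-kit+CD31+ IAHC cells. On the low side Cdh5 was at 0.0652 against 1.30 and H19 at 2.04 against 16.1.

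The erythroid list of 16 genes summed to 4.468 transcripts per YS cell (4.13 to 4.83), against 1.44 (1.18 to 1.74) per IAHC cell, 1.36 per EHT cell, 0.602 per HE and 0.860 per non-HE cell. The sorted sets were at 4.26 and 4.645. Of the 16 genes, 3 passed the floor and 2 of these, Gata1 and Zfpm1, were at least 2-fold higher, with a median log2 ratio of 1.81 and a ratio of sums of 3.11. Klf1 had 0 transcripts in IAHC cells, and against a floor of 3 counts over that group it was at least 9.32-fold higher. Nfe2, a factor of erythroid and megakaryocyte cells, was at 0.723 against 0.603, within the 2-fold bounds. Below the floor, Gfi1b, a repressor needed by erythroid and megakaryocyte cells, was at 0.298 against 0.123, Car2, a carbonic anhydrase, at 0.489 against 0.233, and Blvrb, biliverdin reductase B, at 0.319 against 0.0411 (log2 2.96, 1.32 to 5.29, on 3 IAHC transcripts). Epor, the erythropoietin receptor, was at 0.106 in 13 YS cells and had 1 transcript in IAHC cells (log2 2.96, 0.26 to 8.35). Late erythroid genes were barely present, with 3 transcripts of Hemgn, 2 each of Alas2 (the erythroid first enzyme of haem synthesis) and Rhag, and 0 of Slc4a1 (the band 3 anion exchanger) over the 141 cells. The YS cells therefore carried early erythroid regulators with few transcripts of late red-cell genes.

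Globin transcripts were low. Hbb-bh1, an embryonic beta-like globin, was at 0.745 transcripts per YS cell in 34 cells with up to 16 in a cell, against 0.411 in 19 of 73 IAHC cells (log2 0.86, 0.26 to 1.49). Hbb-y, the epsilon-like embryonic globin, went the other way, at 0.284 against 0.918 (log2 -1.69, -2.30 to -1.11), and Hba-x, the embryonic zeta globin, was at 0.135 against 0.151. HE cells also held embryonic globin, with Hbb-bh1 in 17 and Hbb-y in 21 of 98 cells. The 9 globin genes summed to 1.21 transcripts per YS cell, 1.59 per IAHC cell and 0.694 per HE cell. They were rarer in non-HE and EHT cells, at 0.0930 and 0.0366 per cell. The most in a cell was 18 in YS HSPCs and 6 in HE cells.

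Of the 17 genes of haem synthesis and iron, 4 passed the floor and 0 were 2-fold higher or lower, with sums of 13.9 and 13.2 transcripts per cell that rest on the ferritin genes Fth1 (4.63 against 5.11) and Ftl1 (6.17 against 6.66). Of the enzymes, Alad was at 0.660 against 0.329, under 2-fold with 0.1 added to each level. Below the floor, Urod was at 0.390 against 0.288, Alas1 at 0.0567 against 0.0685, Fech at 0.241 against 0.0959 and Cpox, coproporphyrinogen oxidase, at 0.362 against 0.0411 (log2 3.14, 1.51 to 5.46, on 3 IAHC transcripts).

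Metallothioneins bind zinc and copper, and their genes are switched on through metal response elements bound by the zinc-sensing factor Mtf1. The 8 genes of metallothioneins and zinc handling, of which Mt1 alone passed the floor, summed to 2.33 transcripts per YS cell and 0.479 per IAHC cell, a 4.85-fold difference (log2 2.28, 1.77 to 2.83). Mt2 accompanied Mt1, at 0.418 in 30 YS cells against 2 transcripts in IAHC cells (log2 3.93, 2.02 to 7.01). It was at 0.462 and 0.382 in the sorted sets. Mtf1 itself was at 0.0426 per YS cell and the zinc exporter Slc30a1, another Mtf1 target, at 0.0496 against 0.123, so these 2 genes were not higher with Mt1 and Mt2. The stretch from 250 to 11 bases before each start site is shown because the pair had the same pattern, with matches to the metal response core (TGCACNC or TGCGCNC on either strand) in capitals. Both lie on the plus strand of chromosome 8 (GRCm38.p6, RefSeq), Mt1 at chr8:94178839-94179078 and Mt2 at chr8:94172368-94172607.
Mt1: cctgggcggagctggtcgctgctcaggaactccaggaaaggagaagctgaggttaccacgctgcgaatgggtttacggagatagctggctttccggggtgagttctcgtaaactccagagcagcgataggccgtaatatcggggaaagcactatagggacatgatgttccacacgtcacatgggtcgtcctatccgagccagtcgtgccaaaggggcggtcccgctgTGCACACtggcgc
Mt2: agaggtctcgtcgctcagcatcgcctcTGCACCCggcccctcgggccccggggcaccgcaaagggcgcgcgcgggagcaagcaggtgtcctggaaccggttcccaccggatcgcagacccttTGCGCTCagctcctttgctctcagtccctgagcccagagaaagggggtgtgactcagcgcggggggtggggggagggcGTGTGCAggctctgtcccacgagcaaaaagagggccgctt
In this window Mt1 held 1 match, 17 to 23 bases before the RefSeq start used, and Mt2 held 3. Bases outside the window, including those after this start, were not searched, so these counts do not compare the promoters as a whole. A match was found in the same window of 5478 of 27025 RefSeq promoters (20.3%), so the letters alone are common, and a match is not evidence that a factor binds there.

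The granulocyte-monocyte list of 18 genes summed to 4.14 transcripts per YS cell (3.81 to 4.49) against 2.38 (2.04 to 2.765) per IAHC cell, a 1.74-fold difference, with 1.45, 0.429 and 0.279 in EHT, HE and non-HE cells. Of the 2 genes past the floor, Mpo was 3.08-fold higher (log2 1.62, 1.15 to 2.13) and Prtn3, the neutrophil proteinase 3, was at 0.957 against 0.671 (log2 0.51, 0.03 to 1.01). Prtn3 was detected in a like share of cells, 56 of 141 and 32 of 73. Plac8, of early myeloid cells, was at 0.319 against 0.0959, the Fc receptor Fcgr3 at 0.227 against 0.0822, and Cst7, the protease inhibitor cystatin F, at 0.135 in 17 cells against 0, which is at least 3.28-fold higher. The study's selection was to drop IAHC cells rich in Fcgr3, whereas YS cells were not filtered on it. The lysozyme genes were lower, Lyz2 at 0.0426 against 0.315 (log2 -2.89, -4.47 to -1.55) and Lyz1 at 0.0780 against 0.260 (log2 -1.74, -2.96 to -0.59). The granule proteases Elane and Ctsg and the related Prss57 were at 0 of 141 cells, which likewise leaves room for up to 2.13% of cells with a transcript. The YS cells thus differed within this list, with Mpo high, lysozymes low and Elane not detected at this depth.

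The megakaryocyte list of 16 genes summed to 1.82 transcripts per YS cell and 0.822 per IAHC cell (2.22-fold, log2 1.15, 0.74 to 1.58). Itga2b, the CD41 integrin, was at 0.730 against 0.315 (log2 1.21, 0.55 to 1.93) and was the only listed gene past the floor. The platelet receptor subunits Gp5 and Gp1bb were at 0.170 and 0.121 against 0, at least 4.14-fold and 2.93-fold higher, and Treml1, of platelet granules, at 0.0993 against 0, at least 2.42-fold higher. These 3 genes were also at 0 in HE, non-HE and EHT cells. Pf4, platelet factor 4, was held by 6 YS cells with up to 13 transcripts in a cell, and by 2 of 43 non-HE cells. Tubb1, Gp6 and Gp1ba were at 0.

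Other lineages were scarce. In the mast cell list, Cpa3 (carboxypeptidase A3) was at 0.0638 in 8 cells and Hdc (histidine decarboxylase) at 0.0851 in 8 cells, both against 0 in IAHC cells, while Fcer1a and Cma1 were at 0. Of 14 macrophage genes, 8 were at 0 in YS HSPCs, among them the complement genes C1qa, C1qb and C1qc, and the list summed to 0.113 transcripts per cell against 0.178 in IAHC cells. Csf1r was detected in 6 cells, 13 cells held any macrophage gene, and 0 held 4 or more. Of 12 lymphoid genes, 9 were at 0. The endoderm list, which would mark the visceral endoderm of the YS, summed to 0.227 per YS cell against 0.932 per IAHC cell. YS HSPCs held 5 transcripts of Ttr and 3 of Afp in all. The only gene of this list past the floor was Krt18, at 0.0567 against 0.548, so the sums do not compare visceral endoderm RNA alone. The mesenchyme list summed to 0.135 against 0.712. Csf1r and mesenchymal genes were among the markers of the study's selection of IAHC cells, which was not applied to YS cells.

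**Figure D3:**
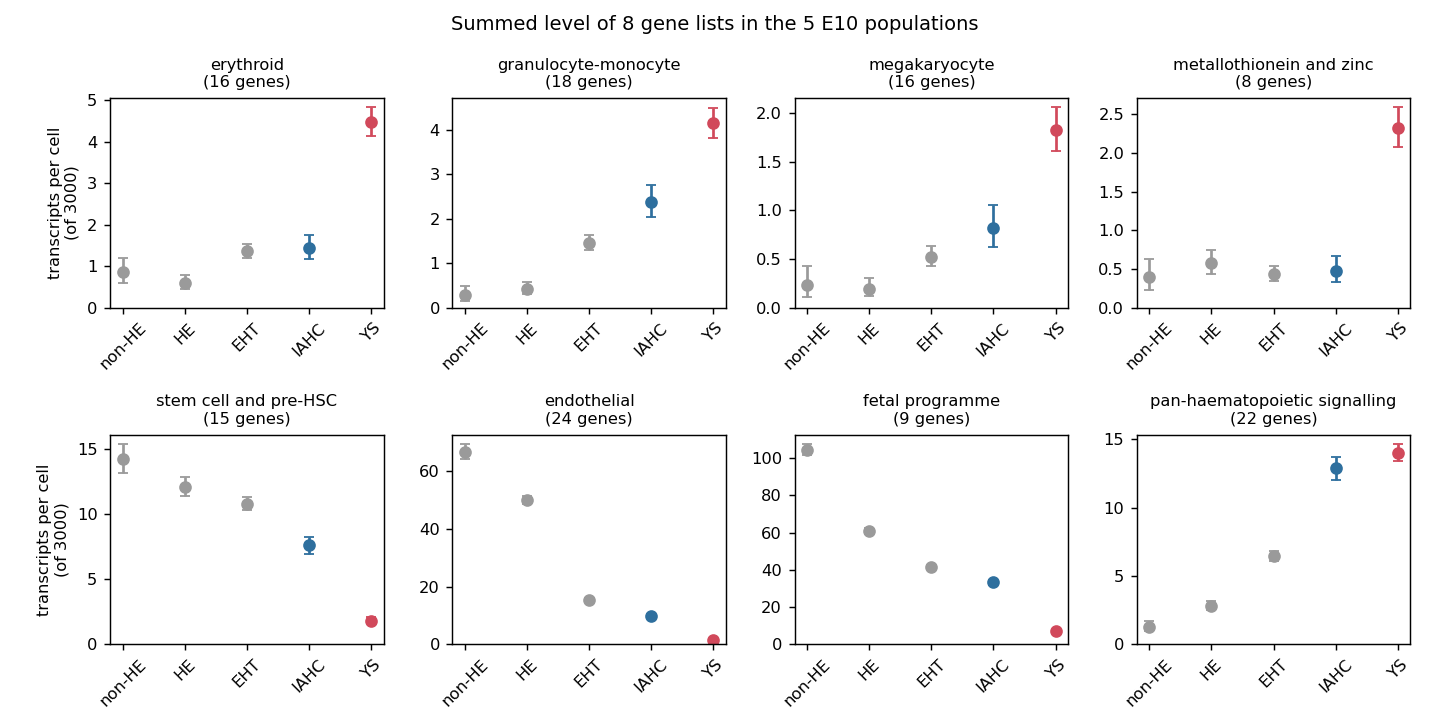
Summed transcripts per cell of 8 gene lists in the 5 E10 populations, as points with exact 95% Poisson intervals. YS HSPCs were highest for the erythroid (4.468), granulocyte-monocyte (4.14) and megakaryocyte (1.82) lists and lowest for the endothelial (1.37) and pre-HSC (1.83) lists.

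The endothelial list of 24 genes summed to 1.37 transcripts per YS cell against 9.75 per IAHC cell, a 7.13-fold difference (log2 -2.83, -3.07 to -2.60), and to 66.7 per non-HE cell. Of 9 genes past the floor, 8 were at least 2-fold lower and 0 higher, with the sort marker Pecam1 among the 8. At 0 in all 141 YS cells were 9 genes, among them the VEGF receptor Kdr, the tight junction protein Cldn5 (0.452 in IAHC cells), the arterial gap junction protein Gja5 and the factors Sox7, Sox17 and Sox18. Egfl7, which is also made by blood progenitors, was the highest remaining member at 0.660 in 59 cells against 1.32.

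The HSC and pre-HSC list of 15 genes was lower as well, with 1.83 against 7.60 transcripts per cell (4.15-fold, log2 -2.05, -2.27 to -1.84) and all 3 genes past the floor at least 2-fold lower. This list was higher still in non-HE, HE and EHT cells, at 14.3, 12.1 and 10.8, so its sum does not mark HSCs or pre-HSCs alone. Procr, the endothelial protein C receptor of HSCs, was detected in 2 of 141 YS cells and 24 of 73 IAHC cells (log2 -5.04, -8.14 to -3.07). Gfi1, a repressor active in the endothelial switch, was in 2 and 26 cells (log2 -4.65, -6.99 to -2.997). Cd34 was at 1.18 against 3.89 (log2 -1.72, -2.00 to -1.43), Hlf at 0.0426 against 0.397, and the Hox genes Hoxa9 and Hoxa5 at 0.0213 and 0 against 0.329 and 0.219. Procr was also detected in 59 of 98 HE cells.

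Factors shared by blood progenitors had similar sums, at 7.93 and 8.29 transcripts per cell. Of 14, 8 passed the floor and 0 were 2-fold higher or lower. With so few genes this is near the 11.6% of all 1579 genes. Myb was at 1.25 against 1.16 (log2 0.10, -0.28 to 0.49), Lmo2 at 0.979 against 0.973, Tal1 at 0.461 against 0.438, Runx1 at 0.468 against 0.616 and Gata2 at 0.440 against 0.342. The myeloid factor PU.1 (Sfpi1) was at 0.390 against 0.836, less than 2-fold apart with 0.1 added. Of 22 leukocyte signalling and cytoskeleton genes, 10 passed the floor and 3, Rac2, Plek and Fermt3, were at least 2-fold higher, with a median log2 ratio of 0.00. Rac2 was 3.02-fold higher (log2 1.59, 1.16 to 2.05) and Plek, pleckstrin, was at 0.511 against 0.151, whereas Laptm5 was at 1.88 in both and Coro1a, an actin regulator, was 1.45-fold lower (1.71 against 2.48).

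Of the cell cycle lists, S phase was at 20.9 against 18.7 (1.11-fold, log2 0.16, 0.06 to 0.25) and G2/M was higher, at 18.3 against 12.8 transcripts per cell (1.43-fold, log2 0.51, 0.41 to 0.62). In the first list 1 of 17 genes past the floor was at least 2-fold higher, the ribonucleotide reductase subunit Rrm2 (1.18 against 0.493). In the second 2 of 15 were, the mitotic kinase Plk1 (0.986 against 0.411) and the centromere protein Cenpf (1.02 against 0.384). The most abundant transcripts of YS HSPCs were Ptma (40.5 per cell), Hspa8 (25.4), Eef1a1 (22.9) and Hsp90ab1 (17.5), with the nucleolar protein Ncl at 11.6 against 5.81 and alpha-tubulin Tuba1b at 12.1 against 7.36. The fetal list of 9 genes, which includes H19 and Igf2, summed to 7.04 against 33.2. Within it the chromatin protein Hmga2 was lower (1.72 against 4.0, log2 -1.21, -1.47 to -0.96), and the RNA-binding Lin28b and Igf2bp3 were at 0.298 against 0.137 and 0.766 against 0.466.

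Cells of the YS did not share 1 profile. Per cell, the erythroid list summed to 0 to 15 transcripts (median 3) and the granulocyte-monocyte list to 0 to 33 (median 2). A cell was called erythroid-biased or myeloid-biased when that list had at least 3 transcripts and at least 2 times as many as the other, mixed when a list reached 3 without such a lead, and unbiased otherwise. By this rule 63 of 141 cells (44.7%, 36.3 to 53.3) were erythroid-biased, 38 (27.0%, 19.8 to 35.1) myeloid-biased, 27 (19.1%) mixed and 13 (9.22%) unbiased. The sorted sets gave 27, 17, 12 and 9 cells and 36, 21, 15 and 4 cells. Among IAHC cells 7 of 73 (9.59%, 3.94 to 18.8) were erythroid-biased, 22 (30.1%, 19.9 to 42.0) myeloid-biased and 38 (52.1%) unbiased. In HE cells, as background, 3 of 98 were erythroid-biased, 2 myeloid-biased and 92 unbiased. The intervals cover counting error in 1 sample of each population.

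**Figure D4:**
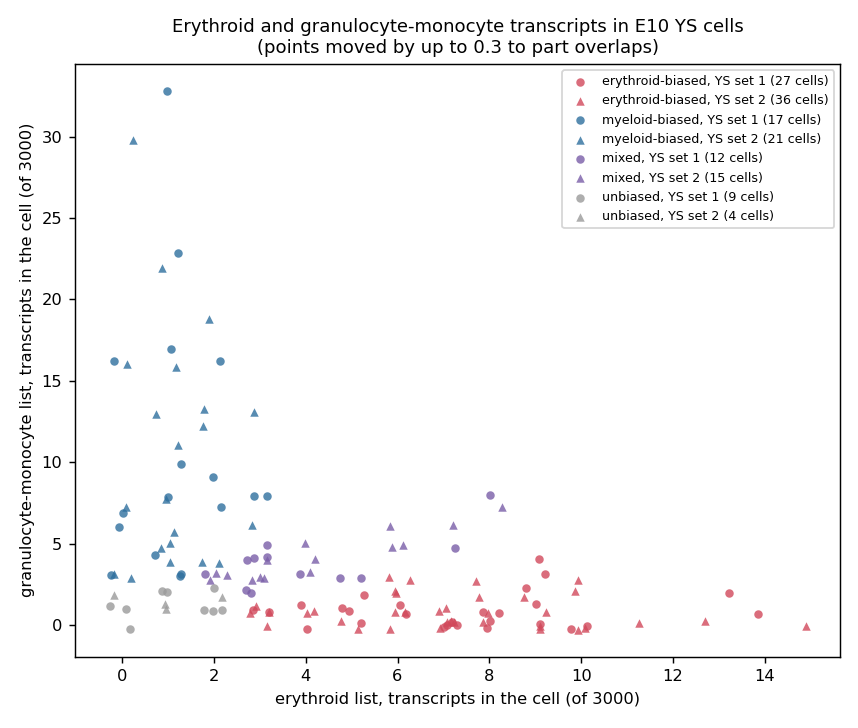
Summed transcripts of the granulocyte-monocyte list and of the erythroid list in each of the 141 YS HSPCs, coloured by class and with a symbol for each sorted set, with points moved by up to 0.3 to show overlaps. Of the 141 cells, 31 were at 3 or more transcripts of each list.

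The classes are ranges of a score. With 1 transcript more or less of either list, 41 of 141 cells turned to another class, and 62 cells had a list at 2 or 3. Over the 141 cells the sums of both lists had a Spearman correlation of -0.55 as a description, in which the points share the same fixed depth. The megakaryocyte list had a Spearman correlation of 0.34 with the erythroid and of -0.10 with the granulocyte-monocyte list. It reached 3 transcripts in 21 of 63 erythroid-biased cells (33.3%, 21.95 to 46.3) and 7 of 38 myeloid-biased cells (18.4%, 7.74 to 34.3).

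Single genes showed the same separation without being exclusive. Mpo was detected in 16 of 47 cells with Gata1 (34.0%, 20.9 to 49.3) and in 61 of 94 cells without (64.9%, 54.4 to 74.5). It was in 12 of 37 cells with Klf1, and in 19 of 62 cells with Cited4 (30.6%) against 58 of 79 without (73.4%). Mt1, in contrast, was in 41 of 47 cells with Gata1 and in 51 of 94 without. Rac2 was in like shares of cells with and without Gata1, 38 of 47 and 77 of 94. It was in 65 of 77 cells with Mpo and 50 of 64 without, at 2.57 against 1.55 transcripts per cell. Cells with transcripts of both lineages were sorted singly into wells, and no doublet caller was run on these equalised depths. As a check by embryo sex, 7 YS cells had Xist alone, 16 had Y-linked transcripts alone, 0 had both and 118 had neither, so few cells could show a doublet this way.

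Between the biased classes, 1584 genes outside both lists were at 0.5 or more in either. Of these 33 (2.08%) were at least 2-fold higher in erythroid-biased cells and 45 (2.84%) at least 2-fold higher in myeloid-biased cells, together 4.92%. Since the classes were cut from transcripts of the same cells, these values describe them and are no test, and with 0.5 added the counts were 8 and 13. In erythroid-biased cells Cited4 was at 2.44 (2.07 to 2.86) in 50 of 63 cells, against 0.105 in myeloid-biased cells (log2 4.54, 3.15 to 6.43), with 2.19 and 2.64 in the sorted sets. Hbb-bh1 was at 1.51 (1.22 to 1.84) in 27 cells against 0.105, and 38 of the 63 cells had a transcript of some globin gene. Mt2 was at 0.857 against 0.0526 and Mt1 at 2.62 against 1.11 (2.37-fold). Of haem enzymes, Cpox was at 0.635 against 0.132 and Alad at 0.984 against 0.316. The red-cell membrane genes Smim1, which carries the Vel antigen, and Kcnn4, the Gardos channel, were at 0.873 each against 0.0526 and 0.105, and Mfsd2b, a sphingosine-1-phosphate exporter of red cells and platelets, was at 0.587 against 0.

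In myeloid-biased cells PU.1 (Sfpi1), which drives myeloid fate and antagonises Gata1, was at 0.868 (0.598 to 1.22) in 19 of 38 cells and at 0.0635 in erythroid-biased cells (log2 -3.77, -5.73 to -2.28). Tyrobp, the DAP12 signalling adaptor of myeloid receptors, was at 0.842 against 0.0476, and Lst1, of leukocytes, at 0.632 against 0.0794. The actin proteins Coro2a, Lcp1 and Coro1a were at 1.08, 1.63 and 2.45 against 0.0952, 0.317 and 0.937. Cd34 was at 1.84 (1.44 to 2.33) against 0.302 and Hmga2 at 2.95 (2.43 to 3.55) against 0.651. Unbiased cells were at 2.62 and 2.54 for this pair, so both genes were low in erythroid-biased cells rather than high in myeloid-biased cells alone.

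**Figure D5:**
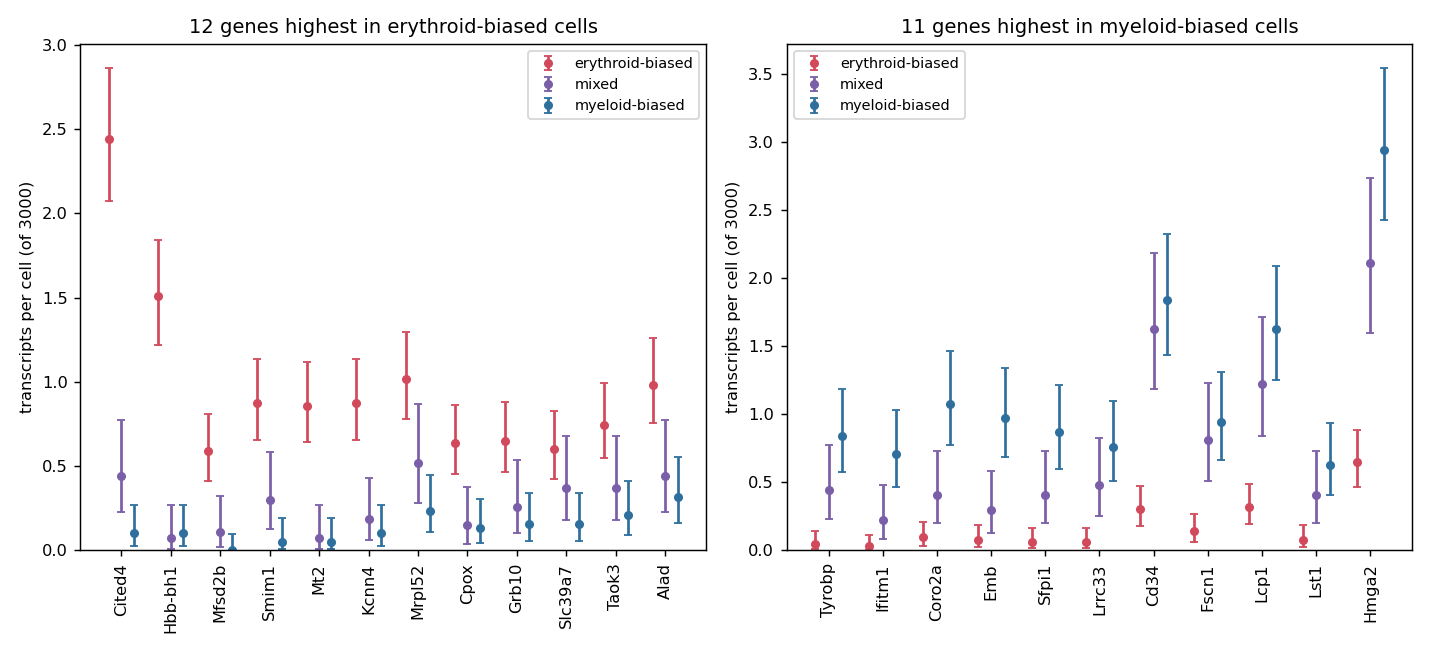
Mean transcripts per cell with exact 95% Poisson intervals for the 12 genes highest and the 11 lowest in erythroid-biased over myeloid-biased YS HSPCs, outside both lists, with mixed cells between. Cited4 was at 2.44 in erythroid-biased and 0.105 in myeloid-biased cells, while Cd34 was at 0.302, 1.63 and 1.84 in erythroid-biased, mixed and myeloid-biased cells.

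The 13 unbiased cells held the most H19 and Igf2, at 4.15 and 3.0 transcripts per cell, against 0.635 and 0.476 in erythroid-biased and 1.18 and 1.05 in myeloid-biased cells. All of these were below the level of IAHC cells. Gata2, a factor of early progenitors, was at 0.852 in mixed and 0.692 in unbiased cells and at 0.238 and 0.395 in the biased classes. The HSC and pre-HSC list, which was highest in non-HE cells, summed to 0.810 in erythroid-biased, 2.58 in myeloid-biased, 2.30 in mixed and 3.62 in unbiased cells. Each was below the 7.60 of IAHC cells. G2/M transcripts were at 19.2, 17.5, 18.3 and 16.3 in the same order, all above the 12.8 of IAHC cells.

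A split by the most variable genes, which include genes of the lists, gave a like picture. In k-means with 3 clusters, the first, erythroid-like cluster of 55 cells held 52 erythroid-biased and 0 myeloid-biased cells and was led by Hbb-bh1, Cited4, Klf1 and Mt2. The third, granulocyte-monocyte-like cluster of 40 cells held 22 myeloid-biased, 10 mixed and 6 erythroid-biased cells, led by Mpo, Lmo4, Plac8 and Prtn3. Its granulocyte-monocyte markers summed to 8.4 transcripts per cell. Erythroid markers were not absent from it, at 3 per cell against 5.75 in the first cluster and 1.46 in the second. The second, unnamed cluster of 46 cells held 10 of the 13 unbiased, 15 mixed and 16 myeloid-biased cells, led by Igf2, H19 and Cd34. Each cluster drew cells from both sorted sets, 25 and 30, 15 and 25, and 25 and 21.

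Most of these class differences had the same direction in E11 YS cells, where the same rule gave 14 erythroid-biased, 15 myeloid-biased, 4 mixed and 13 unbiased cells of 46. Of the 12 erythroid-biased genes 11 and of the 12 myeloid-biased genes 10 had the same direction, beside 56.5% of all 1584 genes. Alad was at 0.857 against 0.0667 and PU.1 at 0 against 0.933, whereas Hbb-bh1 was nearly level at 0.5 against 0.467. Among those in the opposite direction were Slc39a7, a zinc transporter (0.286 against 0.467), and Lrrc33 (0.929 against 0.467). Promoters of the erythroid list held a GATA motif (AGATAA or AGATAG or TGATAA or TGATAG on either strand) in the same window before the start in 6 of 11 matched genes, Klf1, Epor, Gfi1b, Ermap, Alas2 and Rhag. The granulocyte-monocyte list held one in 1 of 15, Lyz1, beside 26.5% of all RefSeq promoters. With the window ended 61 bases before the start, the erythroid list held one in 4 of 11, beside 22.9% of all promoters. The genes named for their values held it no more often than all promoters did, in 2 of 11 highest in erythroid-biased cells, 2 of 8 highest in myeloid-biased cells and 2 of 12 highest over IAHC cells. These are matches of letters in lists of unequal size, and no binding was measured.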

How the data were processed

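Single cells were sequenced with CEL-Seq, which counts the 3′ ends of transcripts by unique molecular identifiers (UMIs). The submitters' processing notes name BWA 0.6.2-r126 and mm10. The authors deposited estimated counts of transcripts per gene and cell, after they had cut all cells of a stage to the same depth and added 0.1 to each value. With 0.1 taken off, E10 cells held 3000 and E11 cells 5000 transcripts. The methods give a single depth, so the E10 depth was read from the values. E11 cells were thinned once to 3000 (seed 1). The E10 table listed 19322 genes, of which 14285 had a transcript. Of the E11 table, 239 columns were not used, nor was the table of whole IAHCs. Cells were not filtered further.

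Ratios were ranked as log2 of levels plus a pseudocount of 0.1, at a floor of 0.5 transcripts per cell in either population, and printed log2 values and intervals are of the levels themselves. Genes named were members of 21 gene lists and those highest or lowest by rank: 15 each way against IAHC cells, leaving out Gpr56, Kit and Pecam1, 10 against the next E10 population, 15 by variance to mean ratio at a mean of 0.3 or more, 12 each way between classes and the 10 most abundant. Some genes that met these rules are not reported here. Members, lists and rules were chosen with earlier results of these data known. k-means used 3 clusters, 50 starts and 20 principal components of the 1000 most variable genes at a mean of 0.1 or more. Where a group had 0 transcripts, a bound against 3 counts over the group is given. Ratios and intervals were tested on simulated data. Alternatives changed the pseudocount, floor, sorted set, IAHC purification, globins, class rule and cluster number. Python 3.11.15, numpy 2.4.6, pandas 2.3.3, scipy 1.17.1, scikit-learn 1.9.0 and matplotlib 3.10.9 were used.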

Additional observations from a re-analysis of the deposited data

Results flagged for a closer look

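For 2 genes YS HSPCs stood on opposite sides of IAHC cells at E10 and E11. The difference between stages was not tested, since each stage and population was 1 sample, or 2 for E11 IAHC cells. Coro1a, an actin regulator of leukocytes, had a log2 ratio of YS HSPCs over IAHC cells of -0.54 at E10 and of 0.38 and 0.92 against the c-kit+CD31+ and c-kit+ IAHC samples at E11. Its levels were 1.71 against 2.48 transcripts per cell at E10, and 2.72 against 2.09 and 1.44 at E11. Hbb-y, an embryonic globin, had a log2 ratio of -1.69 at E10 and of 5.83 and 2.92 at E11. It was at 0.284 against 0.918 at E10, and at 1.70 against 0.0299 and 0.225 at E11. The c-kit+ YS cells of E11 also held more Hba-x, at 0.674, than those of E10, at 0.135, in populations of 46 and 141 cells.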

How the results depend on the processing

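The counts of genes at least 2-fold higher and lower in YS HSPCs than in IAHC cells, 76 and 107, depended on the threshold used. They became 17 and 36 with a pseudocount of 0.5, 146 and 244 at a floor of 0.2, and 40 and 31 at a floor of 1 transcript per cell. They were 80 and 110 in the first sorted set, 89 and 108 in the second, 70 and 99 against 54 purified IAHC cells, and 76 and 106 without globin genes. In comparisons chosen after seeing the data, E11 YS cells gave 25 and 62 against c-kit+CD31+ and 41 and 42 against c-kit+ IAHC cells, and erythroid-biased E10 YS cells alone gave 130 and 159, while myeloid-biased cells alone gave 96 and 109.

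Class sizes moved with the rule. Unbiased cells numbered 5 with at least 2 transcripts required. With at least 5, 11 cells were mixed and 48 unbiased. Without Mpo, 15 were mixed and 22 unbiased, and without Car2 and Blvrb 20 were unbiased. With 2 clusters, 92.1% of erythroid-biased and 78.9% of myeloid-biased cells were in the cluster that held most of their class. These shares were 82.5% and 57.9% with 3 clusters and 74.6% and 44.7% with 4, so they fell with each cluster added. Genes at least 2-fold higher in erythroid-biased and in myeloid-biased cells, 33 and 45, became 8 and 13 with a pseudocount of 0.5, 123 and 149 at a floor of 0.2, and 107 and 145 in E11 YS cells. Of the ratios of named genes under these settings, 246 stayed within the half-width of their counting interval, 54 moved by more, and 0 changed sign. Part of this was fixed in advance. Of the 246, 30 were unchanged by construction, since leaving out YS cells with at least 4 macrophage genes removed 0 cells. In the sorted sets taken alone no sign could change, because named genes were required to keep their direction in both. Nor could a sign change with another pseudocount.

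No paired analysis was possible because each population was 1 sample. A depth of 3000 transcripts per cell leaves most lineage genes below 1 transcript per cell, so a gene without a transcript is only undetected at this depth.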

Other observations

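Some genes varied widely among YS HSPCs outside the lineage lists. Tmsb4x, the actin-binding thymosin beta 4, was at 7.62 transcripts per cell with up to 38 in a cell, against 15.4 in IAHC cells. Trim12c was at 0.426 and Lmo4 at 0.723, each with up to 14 transcripts in a cell. Cxcr2, a chemokine receptor of neutrophils, was detected in 129 of 141 YS cells at 3.81 (3.49 to 4.14), against 1.53 in IAHC cells and 3.22 in EHT cells. It was also detected in 51 of 98 HE cells and was at 0.891 in E11 YS cells at the same depth. Rab33b was likewise at 4.96 in E10 YS cells, in 50 of 98 HE cells, and at 1.11 in E11 YS cells. The 18 cytokine receptor genes summed to 1.68 transcripts per YS cell and 2.60 per IAHC cell, with the sort marker Kit the only one past the floor. Of the others, Ifngr1 was at 0.277 against 0.411 and Tgfbr2 at 0.0567 against 0.233 in IAHC cells.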
